A study of Mus musculus with 4 samples.

Results

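The peaks described here were called with an anti-Miz-1 antibody in both genotypes, away from promoters and in repetitive, GC-rich DNA. Whether these peaks are sites of MIZ-1 binding was not tested. They were chosen by 4 values of each peak of the MIZ-1WT list. The peak was not at a promoter (it did not cover its nearest transcript start and lay neither within 2000 bp before nor within 1000 bp after it), more than 50% of the window from 100 bp before to 100 bp after its summit was soft-masked as repeat, GC content there was at least 40%, and it overlapped a MIZ-1DPOZ peak by 1 bp or more. This rule selected 8948 of 34209 MIZ-1WT peaks (26.2%), out of 18381 that overlapped the MIZ-1DPOZ list. The overlap, the masking, the GC content and the distance from a start are therefore descriptions of the choice and not results.

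Miz-1 (ZBTB17) is a zinc-finger transcription factor that binds DNA through its zinc fingers, while its POZ domain mediates contacts between Miz-1 molecules. A large part of the mouse genome consists of repeats. Interspersed repeats are copies of mobile elements: a LINE-1 element carries a promoter at its start, which in the mouse is built from repeated monomers, followed by a pair of reading frames of which the longer encodes reverse transcriptase, and endogenous retroviruses are flanked by long terminal repeats. Tandem repeats are short units copied head to tail, and telomeres, the ends of the chromosomes, are long arrays of the hexamer TTAGGG. A sequencing read from such DNA can often be placed at many positions equally well, so a peak in a repeat can stand for a family of copies.

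Chromatin immunoprecipitation and sequencing (ChIP-seq) was performed with the anti-Miz-1 antibody H-190 on B220+ splenocytes, that is, splenic cells of the B lineage. MIZ-1WT cells came from wild-type mice, and MIZ-1DPOZ cells from mice of the MB1-Cre line crossed to Miz-1floxPOZ, in which a Cre recombinase driven by the mb1 (Cd79a) promoter removes the POZ domain of Miz-1 in B lineage cells. All were young adults on a C57BL/6 background. There was 1 ChIP library and 1 input library per genotype, and the number of animals behind each is not given in the sources used here. With 1 library per genotype no test between genotypes was possible. Each difference below compares these 2 libraries. The 95% intervals cover counting error for shares and the spread among peaks for medians, and no spread between animals. They treat peaks as independent, which copies of one repeat are not, so they can be too narrow. Peak lists hold no expression values, so the B220+ label could not be checked against marker genes, and the study describes a reduction of follicular B cells and a higher frequency of marginal zone B cells in these mutant mice.

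The sequences that carry the results are shown first, each as the summit window of a member in the GRCm38 (mm10) genome, 5′ to 3′ on the strand named. The first 3 stand for the groups that made up most members, and the next 3 for other groups. Each was taken as a strong member of its group, a choice made after its values were seen. Capitals mark CG dinucleotides, the sites of DNA methylation.
212-bp unit, chr2:79937306-79937506, plus strand: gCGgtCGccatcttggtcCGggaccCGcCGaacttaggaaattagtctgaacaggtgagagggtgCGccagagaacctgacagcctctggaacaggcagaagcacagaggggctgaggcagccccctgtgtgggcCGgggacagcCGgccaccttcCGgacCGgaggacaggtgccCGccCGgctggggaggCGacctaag
208-bp unit, chr5:49754718-49754918, minus strand: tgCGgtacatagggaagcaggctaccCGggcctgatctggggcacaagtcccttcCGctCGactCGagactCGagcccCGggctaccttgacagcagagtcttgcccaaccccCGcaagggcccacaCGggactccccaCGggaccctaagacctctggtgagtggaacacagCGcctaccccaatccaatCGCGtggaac
204-bp unit, chr10:3621158-3621358, plus strand: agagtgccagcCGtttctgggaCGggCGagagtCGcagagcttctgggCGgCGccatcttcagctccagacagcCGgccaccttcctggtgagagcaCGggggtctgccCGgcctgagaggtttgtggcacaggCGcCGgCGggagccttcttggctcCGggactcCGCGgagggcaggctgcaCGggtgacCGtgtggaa
After the reading frame, chr12:41777897-41778097, plus strand: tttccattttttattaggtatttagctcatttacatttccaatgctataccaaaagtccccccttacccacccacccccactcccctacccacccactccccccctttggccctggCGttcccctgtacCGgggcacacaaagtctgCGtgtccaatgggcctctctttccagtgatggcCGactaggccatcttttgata
53-bp unit, chr5:134939809-134940009, plus strand: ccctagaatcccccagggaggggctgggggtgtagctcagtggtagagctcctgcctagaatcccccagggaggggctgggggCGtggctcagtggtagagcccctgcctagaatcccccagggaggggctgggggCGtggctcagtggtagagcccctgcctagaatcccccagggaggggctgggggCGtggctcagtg
Short tandem repeat, chr7:140221209-140221409, plus strand: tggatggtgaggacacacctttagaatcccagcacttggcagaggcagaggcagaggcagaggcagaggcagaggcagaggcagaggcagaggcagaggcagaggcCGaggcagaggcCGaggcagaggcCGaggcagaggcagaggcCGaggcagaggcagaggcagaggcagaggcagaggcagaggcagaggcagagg

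The first of these windows lay in an intron of Pde1a, a phosphodiesterase gene, and had 13 CG and a summit pileup (fragments over the summit) of 55 in MIZ-1WT and 131 in MIZ-1DPOZ. The 208-bp and 204-bp units were intergenic, with 13 and 17 CG. Their pileups were 37 in MIZ-1WT and 88 in MIZ-1DPOZ, and 27 in MIZ-1WT and 63 in MIZ-1DPOZ. All 3 were higher in MIZ-1DPOZ, by 1.74 to 1.78 times after scaling for depth. The fourth window lay in an intron of Immp2l, had 4 CG and pileups among the highest of its group, 61 in MIZ-1WT and 143 in MIZ-1DPOZ. The 53-bp unit lay in an intron of Mettl27 (pileups 16 and 33) and the short tandem repeat in an intron of Cd163l1, a scavenger receptor gene (pileups 65 and 92).

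Summit pileups of most members were low in MIZ-1WT and higher in MIZ-1DPOZ. The MIZ-1WT pileup ranged from 5 to 296 fragments with a median of 11 (quartiles 9 and 15), and the MIZ-1DPOZ pileup from 6 to 343 with a median of 33 (quartiles 15 and 53). The MIZ-1DPOZ library was 1.34 times deeper, as judged from the most frequent local background and the fragment length of each list. After scaling for this, the log2 ratio (MIZ-1DPOZ over MIZ-1WT) had a median of 1.06 (95% interval of the median 1.04 to 1.08), with quartiles of 0.28 and 1.498. The MIZ-1DPOZ pileup was at least 2-fold higher at 4705 members (52.6%, 51.5 to 53.6) and at least 2-fold lower at 57 (0.637%). Over all 18381 shared peaks these shares were 28.8% and 1.23%, with the members included. Both pileups of a pair were read at each list's own summit, and these lay a median of 57 bp apart. The rule required a peak in both libraries, so the ratios describe the members and support nothing about MIZ-1DPOZ binding in general.

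**Figure D1:**
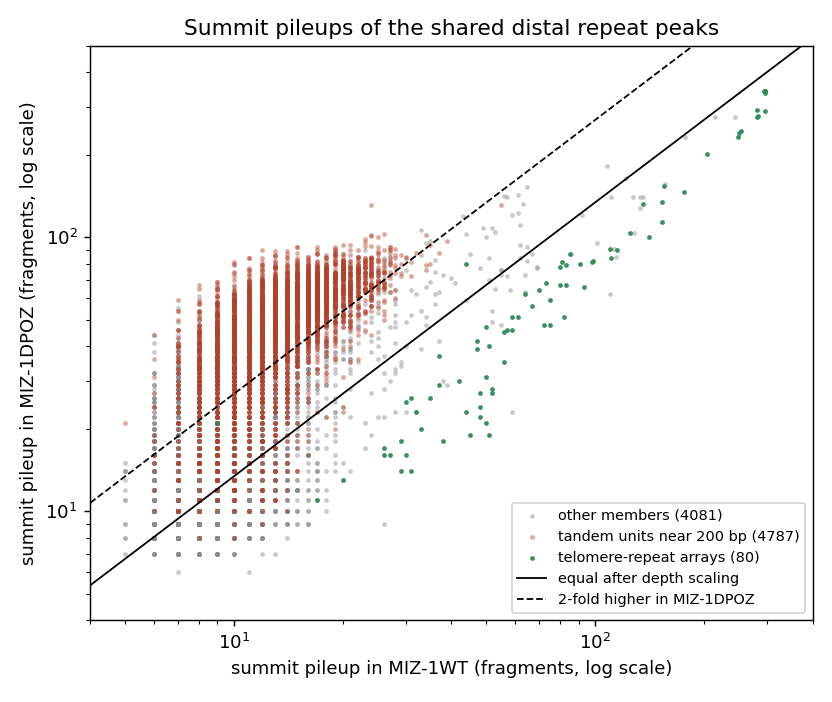
Summit pileup of each of the 8948 members in MIZ-1WT (x axis, fragments, log scale) and MIZ-1DPOZ (y axis, fragments, log scale), with lines at equality after depth scaling and at 2-fold higher. The 4787 members in tandem units near 200 bp lie mostly above the dashed line, and 78 of the 80 telomere-repeat arrays lie below the solid line.

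Shared distal peaks outside repeats did not show the same spread. At these 2596 peaks the median pileup was 9 in MIZ-1WT and 14 in MIZ-1DPOZ. Their median log2 ratio was 0.16, and the MIZ-1DPOZ pileup was at least 2-fold higher at 9.55% (8.48 to 10.7) and at least 2-fold lower at 1.04%. At the 6392 shared promoter peaks the median log2 ratio was 0.12, with 5.18% at least 2-fold higher. The commonest ratios of the members lay above 2-fold, and those of the peaks outside repeats lay near equality.

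**Figure D2:**
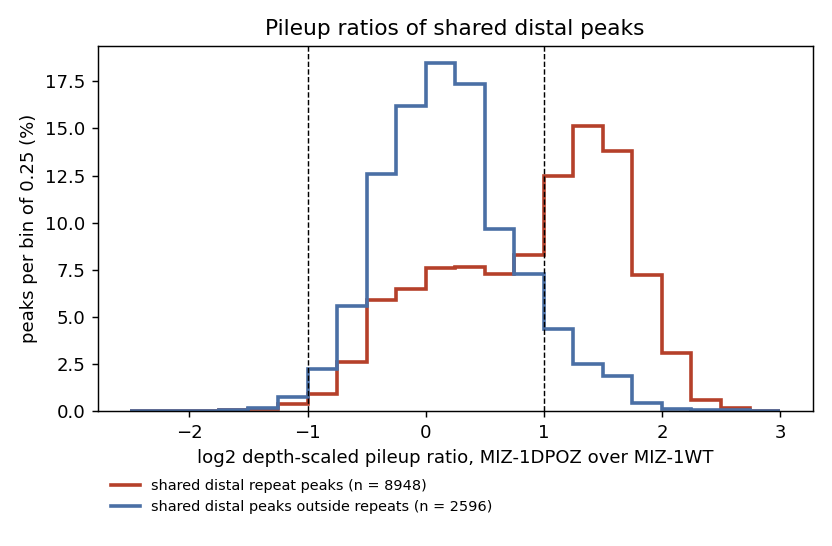
Log2 depth-scaled pileup ratio of MIZ-1DPOZ over MIZ-1WT (x axis) against the percent of peaks per bin (y axis) for members and for shared distal peaks outside repeats; dashed lines mark 2-fold. The medians were 1.06 for 8948 members and 0.16 for 2596 peaks outside repeats.

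The local background, the fragment number that MACS2 expected at each summit from the input library, moved with this result. At the members it was a median of 1.53 times the most frequent background of the list in MIZ-1WT and 2.07 times in MIZ-1DPOZ. At shared distal peaks outside repeats it was 1.00 and 1.12 times. When each summit was divided by its own local background, the median ratio of the members was 0.28 on the log2 scale (0.27 to 0.30). The enrichment of MIZ-1DPOZ was then at least 2-fold higher at 561 members (6.27%), against 3.53% of all shared peaks, and at least 2-fold lower at 104 (1.16%), against 2.28%. Outside repeats the median on this scale was -0.18, with 1.31% at least 2-fold higher. The difference between the libraries was thus smaller on this scale, and the part of the background in the pileups was not tested. Values on this scale are given below for each sequence group described. Its zero is not that of depth scaling. Where the background was the most frequent value in both lists, this scale divides the pileup ratio by 1.57 and depth scaling by 1.34. Values there are lower by this fixed offset, so a negative median does not by itself show a lower signal in MIZ-1DPOZ. The most frequent value was also the lowest at the members.

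The members were mostly sequences with many copies in the genome, which the rule did not use. The number of copies of a summit was the median genomic count of 5 sequences of 50 bases around it. It was above 1 for 7336 members (82.0%, 81.2 to 82.8), with a median of 304.5 copies, quartiles of 5 and 1215 and a highest value of 118363. Other masked distal peaks had lower shares: 65.1% (64.0 to 66.2) of the 7333 distal repeat peaks found in MIZ-1WT without overlap and 66.4% (65.9 to 67.0) of the 32047 found in MIZ-1DPOZ without overlap were multi-copy, and 21.8% of the shared distal peaks outside repeats were. The members were also richer in GC than the MIZ-1WT distal repeat peaks without overlap, with a median of 63.2% against 48.3%, and held 11 CG per window against 2.

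The pileup ratio differed with the number of copies. At the 1612 members with a single-copy summit the median pileups were 9 and 14, the median log2 ratio was 0.11 (0.08 to 0.16), and 8.31% were at least 2-fold higher in MIZ-1DPOZ. The median log2 ratio was 0.65 at 2 to 10 copies (904 members), 1.04 at 11 to 100 (1210), 1.38 at 101 to 1000 (2481) and 1.303 at 1001 to 10000 (2548). In the class of 101 to 1000 copies, with median pileups of 13 and 48, 77.9% were at least 2-fold higher. Above 10000 copies it was 0.45 (193 members, pileups 8 and 16). The few multi-copy peaks outside repeats had like values at the same copy number, 0.64 at 2 to 10 copies (435 peaks) and 1.10 at 11 to 100 (131 peaks), and their single-copy peaks had 0.06 (2030 peaks). The local background in MIZ-1DPOZ went with the copies too, from 1.00 times the most frequent value at single-copy members to 2.77 times at 101 to 1000 copies. On the own-background scale the medians were -0.13 for single-copy and 0.35 for multi-copy members. Without the 3 groups of tandem units near 200 bp described below, the depth-scaled medians were 0.45 for 2706 multi-copy and 0.09 for 1455 single-copy members. The 445 shared distal repeat peaks with a GC content below 40% were 77.3% multi-copy, yet their median was -0.23. Copies alone thus did not go with a higher ratio in every class.

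**Figure D3:**
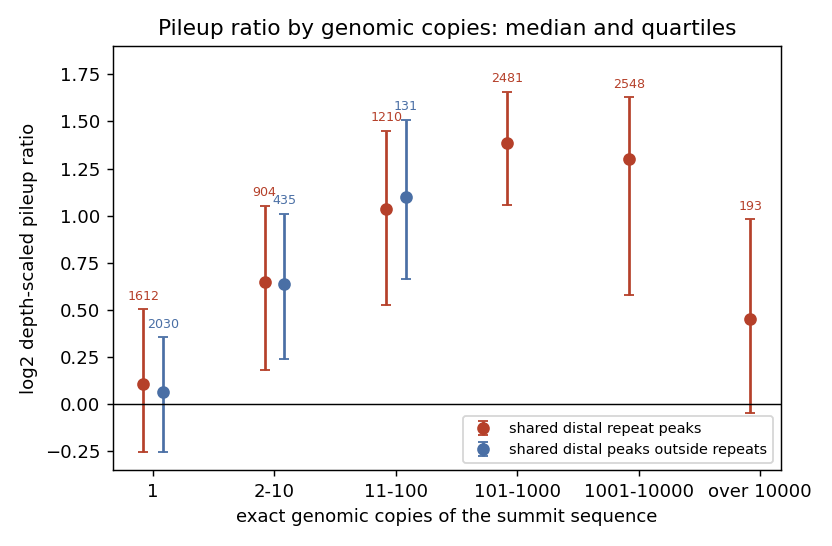
Median log2 depth-scaled pileup ratio of MIZ-1DPOZ over MIZ-1WT (y axis, bars are quartiles, numbers are peaks) by exact genomic copies of the summit sequence (x axis) for members and for shared distal peaks outside repeats. The medians of the members lie between 0.11 at 1 copy and 1.38 at 101 to 1000 copies, and the blue points lie beside the red ones in the 3 classes that both have.

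Members and shared distal peaks outside repeats were also set side by side at like heights in MIZ-1WT. That height is the denominator of the ratio and both libraries had to have a peak, so the ratio depends on it by construction and only values within a height class are set against each other. At MIZ-1WT pileups of 5 to 8 the median log2 ratios were 0.48 for 1900 members and 0.35 for 938 peaks outside repeats. At 9 to 11 they were 0.87 (2917) and -0.01 (1074), at 12 to 15 they were 1.34 (2252) and -0.12 (335), and at 16 to 24 they were 1.28 (1589) and 0.30 (86). At 25 to 49 they were 0.80 (186) and 0.48 (86). In the highest class, at 50 or more, the order was turned, with -0.45 for 104 members (median pileups 75 and 87) and 0.29 for 77 peaks outside repeats.

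The members fell into few families of sequence. Summit windows were joined when they aligned at 80% identity or more over at least 50% of the window. This gave 21 groups of 10 members or more, which held 8337 members (93.2%, 92.6 to 93.7), while 473 members matched no other. The largest group held 5105 members (57.1%), but it joined unlike sequences through chains of matches. At 90% identity, a setting used for the account below after its groups had been seen, 24 groups of 10 or more held 84.6% of the members. The 5 largest held 2677, 1445, 871, 852 and 665 members. No repeat annotation was used, so no repeat family was assigned, and the groups are named by what their sequence showed.

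Of these 5, the 3 groups shown above as 212-bp, 208-bp and 204-bp units together held 4787 members (53.5%). A second copy of the summit sequence lay 190 to 230 bp away on the same strand for 4121 of them (86.1%). The spacing was exactly 212 bp at 1843 members of the first group, 208 bp at 1067 of the second and 204 bp at 154 of the third, which gives the groups their names. Such a spacing was found at 9 of the 4161 other members, at 1 of 2596 shared distal peaks outside repeats and at 12 of 7333 MIZ-1WT distal repeat peaks without overlap. Their windows had a median GC content of 64.7% and 12 CG, and 96.7% of their summits were multi-copy.

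A long reading frame followed these tandem units. An uninterrupted frame of at least 1000 codons lay within 10000 bp of the summit at 3312 of the 4787 members (69.2%), against 8.03% of the other members, 2.93% of shared distal peaks outside repeats and 5.37% of MIZ-1WT distal repeat peaks without overlap. At 3280 of the 3312 it began after the summit, read along the frame, at a median of 1715 bp (quartiles 1587 and 1948), and its median length was 1300 codons. Of the 3312 frames, 3298 aligned with the frame of 1 member of the 212-bp group, at a median identity of 99.5% and never below 93.5%. The summits thus lay ahead of copies of one coding sequence. Tandem units ahead of a long frame are the layout described above for LINE-1 promoters, given here as background without an assignment.

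**Figure D4:**
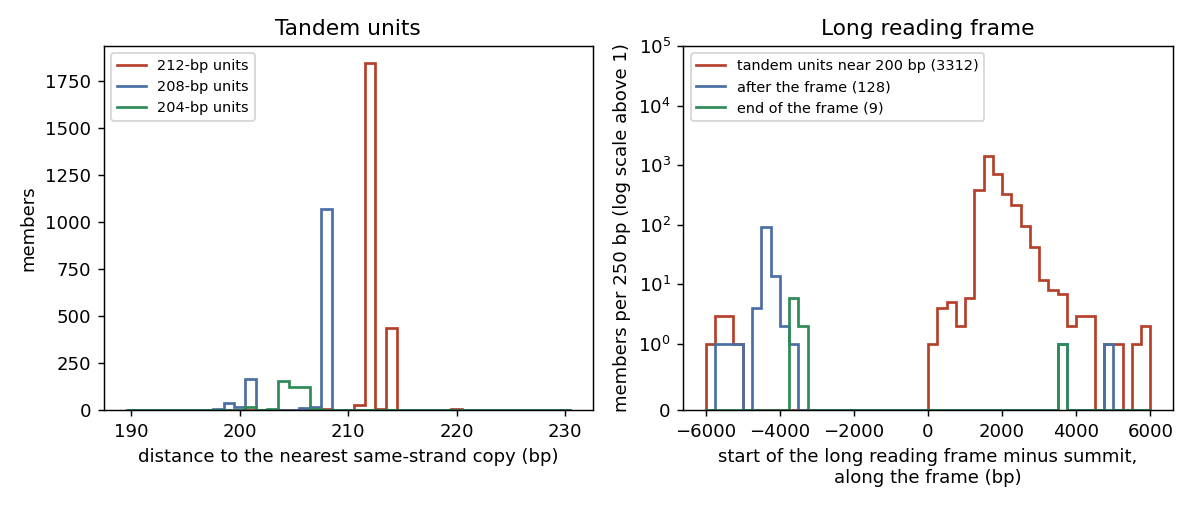
Left, distance from the summit to the nearest same-strand copy of its sequence (x axis, bp) and number of members (y axis) for the 3 tandem-unit groups; right, start of the long reading frame relative to the summit (x axis, bp, positive where the frame begins after the summit) and members per bin (y axis, log scale above 1). Spacings cluster at 212, 208 and 204 bp, and the frame begins a median of 1715 bp after the tandem-unit summits and at -4415 bp relative to the summits of the group that follows the frame.

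The tandem-unit groups carried most of the difference in pileup. In the 212-bp group the median pileup was 15 in MIZ-1WT and 55 in MIZ-1DPOZ, a ratio of 2.66, and 84.5% (83.1 to 85.9) were at least 2-fold higher. In the 208-bp group it was 11 and 44, a ratio of 2.75 (83.7% higher), and in the 204-bp group 12 and 45, a ratio of 2.45 (66.2% higher). For the 3 groups together the median log2 ratio was 1.42 (1.40 to 1.43), the MIZ-1DPOZ pileup was above the scaled MIZ-1WT pileup at 98.1%, and 0 members were at least 2-fold lower. The other 4161 members had pileups of 9 and 15 and a median of 0.28 (0.26 to 0.31). Paired summits lay a median of 92 bp apart in the 3 groups, with 52.0% within 100 bp, against 41 bp and 79.7% at the other members. Many ratios of the 3 groups therefore compare different positions within a repeat. The local background of the tandem-unit groups was 1.88 times the most frequent value in MIZ-1WT and 2.94 times in MIZ-1DPOZ. Over their own background their median log2 ratio was 0.51 (0.49 to 0.52), and that of the other members was -0.09 (-0.12 to -0.06).

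Nearly every MIZ-1WT peak of these sequences was shared. Distal repeat peaks without overlap were given to the group of the member they aligned with best, at 80% identity or more over at least 50% of the window. With these counted in, 99.5% of 2690 MIZ-1WT peaks overlapped a MIZ-1DPOZ peak in the 212-bp group, 99.0% of 1460 in the 208-bp group and 97.8% of 680 in the 204-bp group. Among all 16281 MIZ-1WT distal repeat peaks the share was 55.0%. Overlap was part of the rule, and MIZ-1DPOZ peaks in these groups were wide, with a median of 687 bp against 292 bp in MIZ-1WT, so these shares are a description. The MIZ-1DPOZ list held a further 1587, 2429 and 1128 peaks of these 3 sequences without overlap.

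The group of 871 members, shown above as the window after the reading frame, differed from the tandem units in frame position, composition and pileup ratio. A long frame lay near 128 of its members, and its median start and end were at -4415 and -525 bp relative to the summit, that is, before it. Of these 128 frames, 125 aligned with the same coding sequence as those of the tandem-unit groups, at a median identity of 99.6%, so these summits lay behind copies of the frame that the tandem units preceded. GC content was 49.8%, there were 3 CG per window, and the median copy number was 2868. The median pileup was 9 in MIZ-1WT and 11 in MIZ-1DPOZ, a ratio of 1.03, and 4.02% were at least 2-fold higher. Of 3832 matching MIZ-1WT peaks, 22.7% (21.4 to 24.1) overlapped a MIZ-1DPOZ peak. Overlap was part of the rule, so this share and those of the groups below are descriptions. The median local background was 1.00 times the most frequent value in both libraries. Over their own background the median log2 ratio was -0.19 (-0.23 to -0.13), where the offset between the scales applies.

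A smaller group of 85 members had a GC content of 46.3%, 2 CG per window and a median of 5195 copies. A long frame lay near 9 of its members, with a median start and end at -3574 and 299 bp relative to the summit, and 8 of these frames aligned with the same coding sequence. The name used for this group, the end of the frame, rests on these few. Its pileups were 8 and 10, a ratio of 0.93, and 13.1% of 650 matching MIZ-1WT peaks overlapped. Its strongest member, at chrX:154505919-154506123, had pileups of 19 and 23. The median log2 ratio over the own background was -0.27 (-0.43 to -0.19). Both groups had more copies, fewer CG and less GC than the tandem units, and how copies, composition and background each bear on the ratio was not tested.

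Among the 15 largest groups, 7 others had a median of 9 CG or more per window, and their ratios ranged from 1.03 to 2.52. A group of 146 members, in which a copy 27 bp away was the commonest spacing (46 members), had 14 CG per window and a median of 172.5 copies. Its median pileup was 9 in MIZ-1WT and 30 in MIZ-1DPOZ, a ratio of 2.52, and all 146 were higher in MIZ-1DPOZ. A group of 95 members, in which the 15 with a long frame had it begin at a median of -112 bp from the summit, had 9 CG per window and pileups of 9 and 28, a ratio of 2.39. Only 1 of these 15 frames aligned with the coding sequence that follows the tandem units. A group of 129 members, 89.9% of them intergenic and 20.9% on chromosome X, had 9 CG per window and pileups of 12 and 31, a ratio of 1.87. Of the 146, 95 and 129 members, 76.7%, 67.4% and 40.3% were at least 2-fold higher. In all 3 the local background in MIZ-1DPOZ was 2.44 to 2.80 times the most frequent value, and over their own background the median log2 ratios were 0.01 (-0.09 to 0.10), 0.04 (-0.14 to 0.09) and -0.33 (-0.44 to -0.19). On that scale the first of these groups had a median near 0, as had the second, and the third had a negative median. The strongest members of the 3 groups were at chr4:111837704-111837915 (13 and 28), in an intron of Btbd3 at chr2:138578025-138578229 (14 and 22) and at chr2:55788940-55789223 (27 and 47). A group of 65 members had 15 CG per window, pileups of 9 and 29 and a ratio of 2.29, and 69.2% of it was at least 2-fold higher. A group of 71 members had 16 CG, pileups of 8 and 18 and a ratio of 1.705, with 35.2% at least 2-fold higher. A group of 34 members had 13 CG, pileups of 9 and 23 and a ratio of 1.715, with 29.4% at least 2-fold higher. The medians of these 3 groups over their own background were 0.08 (-0.01 to 0.20), -0.10 (-0.28 to 0.06) and 0.12 (-0.09 to 0.41). Of the MIZ-1WT peaks that matched the groups of 146, 95 and 129 members, 96.1%, 97.9% and 94.9% overlapped a MIZ-1DPOZ peak.

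**Figure D5:**
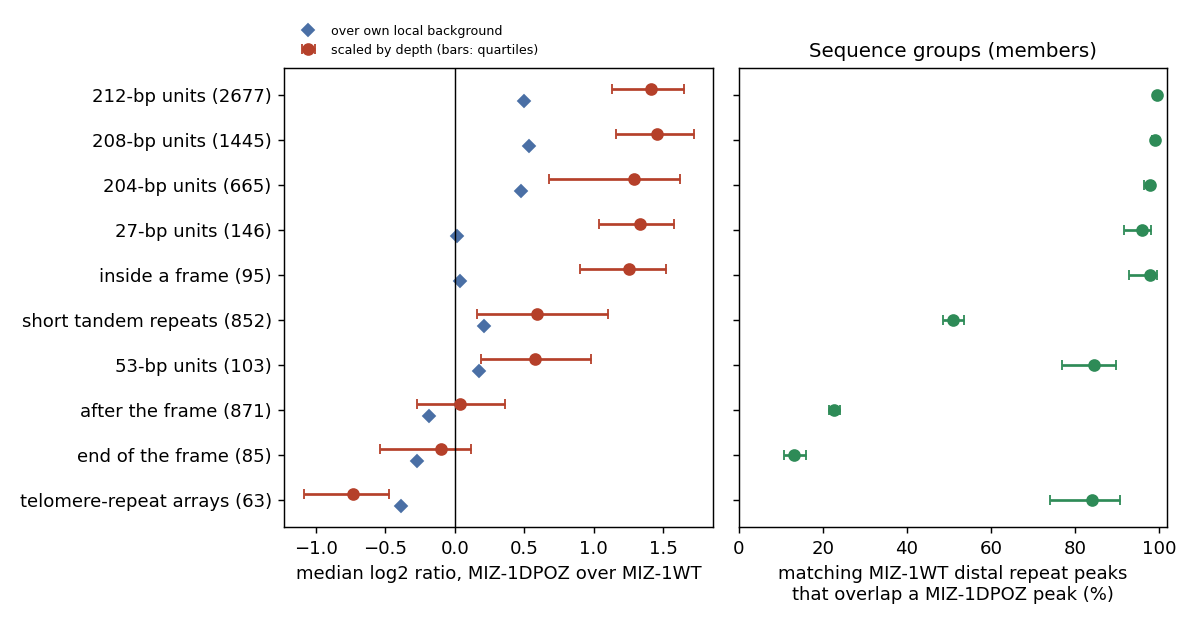
For 10 sequence groups at 90% identity, left, median log2 ratio of MIZ-1DPOZ over MIZ-1WT (x axis) scaled by depth (circles, bars are quartiles) and over the own local background (diamonds); right, percent of matching MIZ-1WT distal repeat peaks that overlap a MIZ-1DPOZ peak (x axis, bars are 95% Wilson intervals). The 3 groups with units near 200 bp lie above 0 on both scales and at 97.8% or more, and the groups after and at the end of the frame lie near 0 and at 22.7% and 13.1%. The names that refer to a frame rest on the 128 of 871, 9 of 85 and 15 of 95 members with a long frame nearby. Of these frames, 125, 8 and 1 aligned with the coding sequence that follows the tandem units, so the frame of the group of 95 is not shown to be the same one.

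Short tandem repeats made up a further group of 852 members, 79.2% of which repeated themselves at a fixed period inside the window. The median pileup was 9 in MIZ-1WT and 20 in MIZ-1DPOZ, a ratio of 1.51, and 51.1% (48.7 to 53.5) of 1668 matching MIZ-1WT peaks overlapped. Over all members, 1138 windows (12.7%) were tandem at a period of up to 100 bases, against 10.9% of shared distal peaks outside repeats. The share was 6.2% among MIZ-1WT distal repeat peaks without overlap. The commonest periods were 6 bases (359 members) and 3 bases (203 members). The commonest unit was AGAGGC, counted with its rotations and its complement, at 133 members, whose pileups were 9 and 27 and whose median log2 ratio was 0.97. AGG (87 members) and AGCAGG (66 members) had medians of 1.05 and 1.09, AAGGAG (93 members) had 0.47, AGGC (17 members) had 0.75, and AAG (114 members) and AAGG (39 members) had 0.23 and -0.06. Over their own background, the 852 members of the group had a median log2 ratio of 0.21 (0.16 to 0.26).

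The group of 103 members with 53-bp units lay mostly in introns (63.1%) and had a GC content of 66.7% with 3 CG per window. Its pileups were 9 and 18, a ratio of 1.49, and the local background in MIZ-1DPOZ was 1.23 times the most frequent value. Over their own background the median log2 ratio was 0.18 (0.06 to 0.30). A group of 106 members, of which 17.0% were multi-copy, held the E-box CACGTG, the palindrome bound by MYC and MAX, in 14.2% (8.77 to 22.0) of its windows. Its windows held a median of 13.5 CG, its pileups were 9 and 12.5, a ratio of 1.03 with 3.77% at least 2-fold higher, and over their own background the median log2 ratio was -0.19 (-0.27 to -0.13).

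Arrays of the telomere hexamer went the other way. A set of 80 members, put together after their values were seen, held at least 10 TTAGGG units on one strand of the window. Their MIZ-1WT pileup ranged from 9 to 296 with a median of 62.5, and their MIZ-1DPOZ pileup from 11 to 343 with a median of 51. The median log2 ratio was -0.71 (-0.85 to -0.68), 78 of 80 were lower in MIZ-1DPOZ after depth scaling, 25 were at least 2-fold lower, and 0 were at least 2-fold higher. The arrays thus held 25 of the 57 members that were at least 2-fold lower. Here the local background was higher in MIZ-1WT, at 1.88 times the most frequent value, than in MIZ-1DPOZ, at 1.29 times. Over their own background the median was -0.45 (-0.65 to -0.31), with 18 at least 2-fold lower. The summits of the pairs lay a median of 6.5 bp apart, closer than at the members as a whole.

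These arrays were the strongest members. The 10 members with the largest smaller value of both −log10 q-values were all TTAGGG arrays with 31 to 33 units in the window. They lay on chromosomes 19, X, 3, 12, 18, X, 2, 1, 7 and 16, and the summits of 9 of them lay 132 to 377 bp from the last sequenced base. Their pileups were 249 to 296 in MIZ-1WT and 233 to 343 in MIZ-1DPOZ, and their ratios 0.70 to 0.87. The largest pileups in the lists were 296 and 346 fragments. Values at this ceiling cannot rise further, so ratios of the strongest arrays are bounded by it. After depth scaling, a peak at both largest values has a ratio below 1 by construction. The arrays on chromosomes 12, 18 and 7 were near both (294 to 296 in MIZ-1WT, 342 to 343 in MIZ-1DPOZ), with ratios of 0.86 to 0.87. Their ratios therefore do not show a lower signal in MIZ-1DPOZ. Most arrays lay below this ceiling, with an upper quartile of 112 fragments in MIZ-1WT. Of the 80 arrays, 13 lay within 1000 bp of the end of 13 chromosomes and the rest lay inside chromosomes. Without regard to overlap, 147 MIZ-1WT peaks and 124 MIZ-1DPOZ peaks held such an array, although the MIZ-1DPOZ list was the longer.

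The members with the lowest and highest ratios belonged to these kinds of sequence. Among the 3952 members with a mean depth-scaled pileup of at least 20 and below the ceiling, 4 of the 5 lowest ratios were TTAGGG arrays. The lowest was in an intron of Efna5, an ephrin gene, at chr17:62737458-62737725, with a pileup of 51 in MIZ-1WT and 19 in MIZ-1DPOZ (ratio 0.28). The others were arrays at chr14:74065832-74066091 (50 and 21), chr13:115742166-115742420 (45 and 19) and in an intron of Gria1, a glutamate receptor gene, at chr11:57302540-57302787 (31 and 14), and a peak at chr11:3100373-3100611 (59 and 23) whose summit lay 506 bp from the first sequenced base and which held no TTAGGG array. All 5 had a single-copy summit.

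The 5 highest ratios were all in the 212-bp or 208-bp groups. With MIZ-1WT pileups of 7 to 10, these peaks passed the filter only through MIZ-1DPOZ. The highest was at chr15:95729167-95729458, with a pileup of 7 in MIZ-1WT and 59 in MIZ-1DPOZ (ratio 6.29). It was followed by a peak in an intron of Il1rapl1, a gene of synapse formation, at chrX:87838963-87839113 (8 and 67, ratio 6.25), and by chr2:13617022-13617169 (8 and 65), chr2:172007766-172008056 (10 and 81) and an intron of 4931428L18Rik at chr1:31075651-31075811 (10 and 80). Their local background was 1.31 to 2.99 times the most frequent value in MIZ-1WT and 3.003 to 6.15 times in MIZ-1DPOZ. The MIZ-1WT −log10 q of these peaks was 1.26 to 2.55, near the bottom of the list. The peak at chr2:13617022-13617169 met its MIZ-1DPOZ peak, chr2:13617155-13617780, only at the edge, and no second same-strand copy of its summit sequence was found near it.

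Members with a single-copy summit were so by the median of exact counts, and near-copies were not counted. Several of those named here were arrays of a repeated unit, so the count does not show that their reads were placed uniquely. The strongest single-copy member was at chr17:13305926-13306304, with pileups of 156 and 157 and a ratio of 0.75. Next came a peak in an intron of Grk5, a receptor kinase gene, at chr19:60924603-60924863 (92 and 121, ratio 0.98). The 10 strongest included arrays of TTAGGG in or near Greb1 (99 and 82), Ror2 (81 and 81), Kcnh1 (83 and 79) and Rps2-ps5 (91 and 80), and a further array lay at chr14:90911096-90911367 (80 and 78). The others were at chr12:74803884-74804568 (128 and 104), chr9:124256329-124257963 (133 and 128) and in the intron of Cd163l1 shown above (65 and 92, ratio 1.06). Of these 10, the last was the only one with a ratio above 1.

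Most members lay between genes, as did most other masked distal peaks. Of the summits, 5833 (65.2%) were intergenic, 3082 (34.4%) intronic, 18 in untranslated regions, 8 in non-coding exons and 7 in coding exons. The intergenic share was 60% of the MIZ-1WT and 66.6% of the MIZ-1DPOZ distal repeat peaks without overlap. It was 34.8% of shared distal peaks outside repeats. The nearest transcript start was a median of 27740 bp away, and distance from a start was part of the rule. A share of 23.5% (2106 members) lay closer than 10000 bp to another member, in 970 clusters of at most 8. Of shared distal peaks outside repeats, which were fewer, 16.3% lay so close to another. The 8948 members overlapped 8164 distinct MIZ-1DPOZ peaks, and 1479 members shared their MIZ-1DPOZ peak with another member, so they are not independent sites.

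Chromosome X held the most members per length, 4.33 per Mb (726 members), and the other chromosomes apart from Y held 2.17 (chromosome 11) to 4.09 (chromosome 5). The order was otherwise for shared distal peaks outside repeats, of which X held 0.435 per Mb, the least of all chromosomes but Y. On X the median log2 ratio was 1.299 and 68.7% of members were at least 2-fold higher in MIZ-1DPOZ. The lowest median was 0.72 on chromosome 19, where 36.4% were. The 104 members on Y had a median of 1.26. In the 3 tandem-unit groups, 10.9% to 13.5% of members were on X. The sexes of the animals behind each library are not given in the sources used here.

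The study concerned signalling by the B cell receptor (BCR), and the genes that host members were read from a list for it and a list of B cell transcription factors. A member lay inside 2087 of 55341 annotated genes (3.77%), and inside 1602 of 21924 protein-coding genes (7.31%). Of 28 B cell transcription factors, 2 hosted a member (7.14%), both in introns. At Bach2, a repressor of plasma cell differentiation, the peak at chr4:32466661-32466949 was single-copy, with pileups of 11 and 13 (ratio 0.88). At Mef2c, a factor of B cell proliferation, the peak at chr13:83616853-83617000 had 905 copies and pileups of 7 and 14 (ratio 1.49). Of 28 BCR signalling genes, 5 (17.9%) hosted 10 members, all in introns, without matching for gene length, and 3 of these genes are described here.

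At Prkcb, the kinase PKCβ, the peak at chr7:122541401-122541782 had 2473 copies and pileups of 17 and 56 (ratio 2.46). Itpr1, an intracellular calcium channel, hosted 3 members (16 to 17 in MIZ-1WT) that met one MIZ-1DPOZ peak of 57, so they count once. At Rasgrp3, an activator of Ras, the single-copy peak at chr17:75445086-75445345 had 11 and 10 (ratio 0.68). A peak in an intron of a gene does not show that the gene is bound at its promoter or changed in expression.

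The E-box CACGTG, which reads the same on both strands, was in 165 of 8947 member windows without unknown bases (1.84%, 1.58 to 2.14). It was in 1.24% (1.09 to 1.42) of windows 2000 bp to each side and 3.25% (3.07 to 3.44) of all MIZ-1WT peaks. The windows to each side were of unlike composition, with a median of 1 CG and 39.8% GC against 11 CG and 63.2% GC in members. Shared distal peaks outside repeats, with 9 CG and 64.2% GC, held the E-box in 5.82% (4.98 to 6.78). The E-box was in 7.57% (6.38 to 8.96) of single-copy and 0.586% of multi-copy members. Of all members, 19 aligned with an annotated small RNA gene of the reference, among them 7 with Rn7s1 and 5 with Rn4.5s. A match of letters is a description and not a site of binding.

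At the limits of the rule, members just inside and peaks just outside had like values. The 269 members with over 50 to 60% masked bases had a median log2 ratio of 0.02, and the 247 shared distal peaks with 40 to 50% had -0.01. The 381 members with a GC content of 40 to 45% had -0.01, and the 312 otherwise alike shared peaks with 35 to below 40% had -0.20. The ratios of the members as a whole therefore did not extend to those nearest either limit.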

How the data were processed

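Paired-end reads were processed by the authors, whose methods name Trimmomatic, bwa and MACS2 on mm10, while the submitters' processing notes name Bowtie2 2.2.6 and MACS2 2.1.0. Peaks were called per genotype against its input library, and the 2 peak lists were used as deposited. The deposited fold enrichment at the summit, a ratio, and the deposited −log10 p-value and −log10 q-value of each peak are values the authors obtained from MACS2. The smallest −log10 q was 1.03 and 1.01. The sources used here do not give the q cutoff or say how duplicate or multi-mapping reads were handled, total read numbers are unknown, and the reads and inputs were not analysed here.

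Whole-number summit pileups and local backgrounds were solved from fold and −log10 p-value for 100% of peaks and tested on simulated data. Pileups were scaled by depth (1.34) or by each summit's own background. Peaks were set against GRCm38 and GENCODE basic transcripts. Copies were exact 50-base words on both strands, and summit windows (100 bp to each side) were aligned with BLAST 2.17.0. The scripts ran on Python 3.11.15 with matplotlib 3.10.9, numba 0.67.0, scipy 1.17.1, pandas 2.3.3 and numpy 2.4.6. A member meeting several MIZ-1DPOZ peaks was paired with that of the largest −log10 q. Shares carry 95% Wilson intervals and medians order-statistic intervals.

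The members, gene lists and tests were chosen with earlier results of these data known. Named peaks were the 10 members with the largest smaller −log10 q over both lists, the 10 such with a single-copy summit, the 5 highest and 5 lowest ratios at a mean pileup of at least 20, the strongest member of each of the 8 largest groups, and hosts from 2 gene lists. Some named genes and 1 sequence are not reported here. The windows printed for the 212-bp, 204-bp and short tandem repeats, and the groups at 90% identity, fell outside this rule and were chosen after their values were seen. Alternatives were stricter scores, overlaps, masking, distances, scalings and alignment settings.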

Additional observations from a re-analysis of the deposited data

How the results depend on the processing

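Shared distal repeat peaks (8948) numbered 3658 with a −log10 q of 5 or more, 5099 with a mutual coverage of 50% and 5815 with summits within 100 bp. In that order, the overlapping share of MIZ-1WT distal repeat peaks was 72.3%, 31.3% and 35.7%, the median log2 ratio 1.14, 0.76 and 0.80, the number at least 2-fold higher in MIZ-1DPOZ 2166, 2110 and 2508, the multi-copy share 86.3%, 77.2% and 78.2% and the share in a sequence group of 10 or more 91.6%, 89.8% and 91.3%, and 30 members were at least 2-fold lower at the stricter score. With at least 90% soft-masked bases the overlapping share was 59.6%, the median 1.16, the multi-copy share 90.5%, the share in groups 97.1%, and 21 members were at least 2-fold lower. More than 5000 bp from every start, the overlapping share was 55.8% and the multi-copy share 83.0%. Scaling by the most frequent background gave a median of 0.83 with 128 members at least 2-fold lower, sequences of 100 bases a multi-copy share of 63.7%, and 90% identity or 80% of the window 84.6% and 86.2% of members in groups. Some settings were added after the data were seen. Over its own background the median was 0.28, with 561 members higher and 104 lower by 2-fold. Among single-copy summits it was 0.11 with 134 higher, with 1 member per MIZ-1DPOZ peak it was 0.96, and without the 3 groups of tandem units near 200 bp it was 0.28 with 793 higher. The median stayed above 0 under each of these settings taken alone. In combination it did not. Over the own background it was -0.09 without the 3 groups of tandem units and -0.13 among single-copy members. The cause was not tested, except that stricter rules leave fewer peaks by construction. No paired analysis was possible because there was a single ChIP library per genotype, and for the same reason no library could be left out. The median MIZ-1WT pileup was 11 fragments, the treatment of multi-mapping reads is unknown, and the spread between animals was not measured.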
